A study of Mus musculus with 2 samples.

Results

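The genes described here are grouped as monocyte matrix, coagulation and adhesion genes. Their transcripts were followed across sorted bone marrow cells of irradiated mice with and without severe aplastic anemia. The genes are *Fn1*, *F13a1*, *Vcan*, *Tgfbi*, *Emilin2*, *Thbs1*, *Icam1*, *Ahnak* and *Pid1*, 9 of the 31053 genes in the deposited count tables. The group name is a label, and *Ahnak* and *Pid1* are not matrix genes. The genes were chosen on measured values, namely their levels and their SAA to RC ratios in monocyte-like cells in an earlier pass over the same 2 libraries. Their ratios are therefore given as a description and support nothing by themselves. Both groups were hybrid F1 mice (C57BL/6;Balb/c) that received 300 rads. Radiation control (RC) mice received nothing further, and SAA mice also received 65000000 splenocytes of C57BL/6 (B6) donors, whose T cells recognise the hybrid host. The age of the mice and the day of harvest are not given in the sources used here. Live (7-AAD-) CD11b+ Ly6C+ Ly6G- marrow cells were pooled from 3 mice for the 1 library of each condition. No test between conditions was therefore possible, and no p-value is given. Host-derived and donor-derived cells were not told apart.

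Monocytes leave the marrow as circulating cells and are a source of provisional matrix and of clot-stabilising enzymes when they enter tissue. Fibronectin, encoded by *Fn1*, links integrins on the cell surface to fibrin and collagen, and factor XIII, whose catalytic A subunit is encoded by *F13a1*, cross-links fibrin and attaches fibronectin to it. Versican (*Vcan*) is a large proteoglycan that binds hyaluronan, and ICAM-1 (*Icam1*) is the surface ligand of leukocyte integrins and is induced by inflammatory cytokines in many cell types.

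All 9 are protein-coding genes of the mouse genome, placed here on mm10 (GRCm38). *Fn1* lies on the minus strand of chromosome 1 from 71585520 to 71653200 and *Pid1* on the same strand from 84036296 to 84364180. *F13a1* (36867178 to 37050244, minus), *Tgfbi* (56609523 to 56639562, plus) and *Vcan* (89655312 to 89742509, minus) lie on chromosome 13. *Thbs1* lies on chromosome 2 (118111876 to 118127133, plus) and *Icam1* on chromosome 9 (21015985 to 21028817, plus). *Emilin2* lies on chromosome 17 (71252172 to 71311978, minus) and *Ahnak* on chromosome 19 (8989284 to 9076914, plus). No gene annotated on the same strand overlapped an exon of any of the 9, and the 2 same-strand genes within *Pid1* lie in its introns.

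The 250 bases before the transcription start were read from RefSeq (GRCm38.p6) for the 7 members with an entry. *Fn1* and *Thbs1* are named only. The sequences of *Icam1* and *Vcan*, the members with higher SAA counts by at least 2-fold in monocyte-like cells, and of *F13a1*, one with lower counts, are printed so that the windows of members with opposite ratios can be compared. Each runs 5′ to 3′ on the strand of its gene, and capitals mark the motif matches found.
*Icam1*, chr9:21015690-21015939, plus strand: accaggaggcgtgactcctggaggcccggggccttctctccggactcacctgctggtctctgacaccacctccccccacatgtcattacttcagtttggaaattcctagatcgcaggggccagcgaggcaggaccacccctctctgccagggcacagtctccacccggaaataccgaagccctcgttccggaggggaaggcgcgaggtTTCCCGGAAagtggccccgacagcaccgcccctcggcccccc
*Vcan*, chr13:89742513-89742762, minus strand: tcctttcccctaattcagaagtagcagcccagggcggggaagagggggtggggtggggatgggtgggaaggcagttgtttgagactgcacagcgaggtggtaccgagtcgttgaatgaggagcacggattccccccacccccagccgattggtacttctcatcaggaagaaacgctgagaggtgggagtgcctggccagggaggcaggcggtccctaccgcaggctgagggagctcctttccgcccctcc
*F13a1*, chr13:37050245-37050494, minus strand: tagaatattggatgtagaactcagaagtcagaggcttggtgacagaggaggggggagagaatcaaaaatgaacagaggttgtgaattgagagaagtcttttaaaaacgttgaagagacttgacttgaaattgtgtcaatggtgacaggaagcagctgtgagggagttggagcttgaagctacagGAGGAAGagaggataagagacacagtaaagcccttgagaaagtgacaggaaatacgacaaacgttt
The capitals in *Icam1* are a match to the interferon-gamma activated site (GAS, TTCNNNGAA), 42 to 34 bases before the start, a motif found in 7.02% of the 32851 annotated starts in windows of the same length. The capitals in *F13a1* are a match to the PU.1 core GAGGAAG, 66 to 60 bases before the start, which 10.6% of all starts hold. The *Vcan* window held none of the 7 motifs searched on both strands. Those were GAS, the ISRE core (a GAAA repeated after any 2 bases, 2.98% of starts), AP-1 (TGANTCA, 6.75%) and CRE (TGACGTCA, 1.55%). The others were the PU.1 core, the C/EBP core TTNNGCAA (9.56%) and kappaB (GGG, A or G, any 2 bases, 2 of C or T, then CC, 7.25%). Forms of a motif outside these letters, kappaB variants among them, were not searched, so a window without a match may still hold one. Matches to different motifs could overlap. Taking the start nearest to the annotated gene start for each of the 7 members, 2 held the ISRE core (*Tgfbi* and *Emilin2*), 1 held GAS, 1 held the PU.1 core, and *Vcan*, *Ahnak* and *Pid1* held none. The nearest *Pid1* start lay 79535 bases from the annotated one and the nearest *Emilin2* start 422 bases. A second *Emilin2* start, 967 bases from the annotated one, held GAS and no ISRE core, so these counts depend on the start taken. A match is a run of letters and not a binding site.

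The RC library held 4066589 UMIs in 798 barcodes and the SAA library 5592265 in 825, where a UMI (unique molecular identifier) stands for 1 captured transcript. Barcodes with at least 1000 detected genes numbered 662 and 729. A cell was monocyte-like where the UMIs of *Csf1r*, *Ccr2*, *Ms4a6c* and *Ly86* together exceeded those of 8 granule and granulocyte genes, and granulocyte-like where the reverse held. Monocyte-like cells with under 5 UMIs of 4 cycle genes (*Top2a*, *Mki67*, *Stmn1*, *Pclaf*) were non-cycling, 252 in RC and 144 in SAA, and the others cycling, 82 and 133. Granulocyte-like cells numbered 325 and 428, and 3 and 24 cells were tied. These classes are ranges of a score. Near the limits, 53 RC and 19 SAA barcodes fell short of the minimum by at most 100 genes, and 43 and 31 exceeded it by under 100. In 8 and 21 monocyte-like cells the marker sums differed by 1 or 2 UMIs, and 4 and 10 monocyte-like cells held 4 cycle UMIs. Median depth was 2907.5 (RC) and 4593 UMIs (SAA) in non-cycling cells, and 5681 and 8651 in cycling cells, so shares of cells were also taken after each cell was thinned to 2600 UMIs. The sort markers were present, with *Itgam* in 63.8% of the monocyte-like cells of RC and 61.7% of those of SAA, and *Ly6c2* in 92.5% and 97.5%. *Ly6g* was at 0 UMIs in RC monocyte-like cells, and was found in 45.2% and 45.8% of granulocyte-like cells despite the Ly6G- gate. Levels below are UMIs per 1000000 UMIs of the class (CPM). Intervals are 95% intervals, exact Poisson for CPM, exact conditional binomial for the SAA to RC ratio and Clopper-Pearson for shares. They cover counting error only and not differences between mice.

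In non-cycling monocyte-like cells, 5 of the 9 members were at least 2-fold lower in SAA, 2 were at least 2-fold higher and 2 lay between. Of all 6734 genes with at least 20 UMIs in this class, 11.3% were at least 2-fold lower and 8.72% at least 2-fold higher. Since the members were picked from this same contrast, nothing is read from that count. The genes with lower SAA levels were *Fn1*, *F13a1*, *Ahnak*, *Pid1* and *Thbs1*, and those with higher levels were *Vcan* and *Icam1*. The median log2 ratio was -1.67 over the members and -0.08 over all genes. In cycling monocyte-like cells 8 members reached 20 UMIs, of which 4 were lower (*Fn1*, *F13a1*, *Ahnak*, *Pid1*), 2 higher (*Vcan*, *Icam1*) and 2 between, beside 7.5% lower and 9.63% higher of 7146 genes. All 8 lay on the same side of 1 in both monocyte classes except *Emilin2*, whose intervals held 1 in each.

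**Figure D1:**
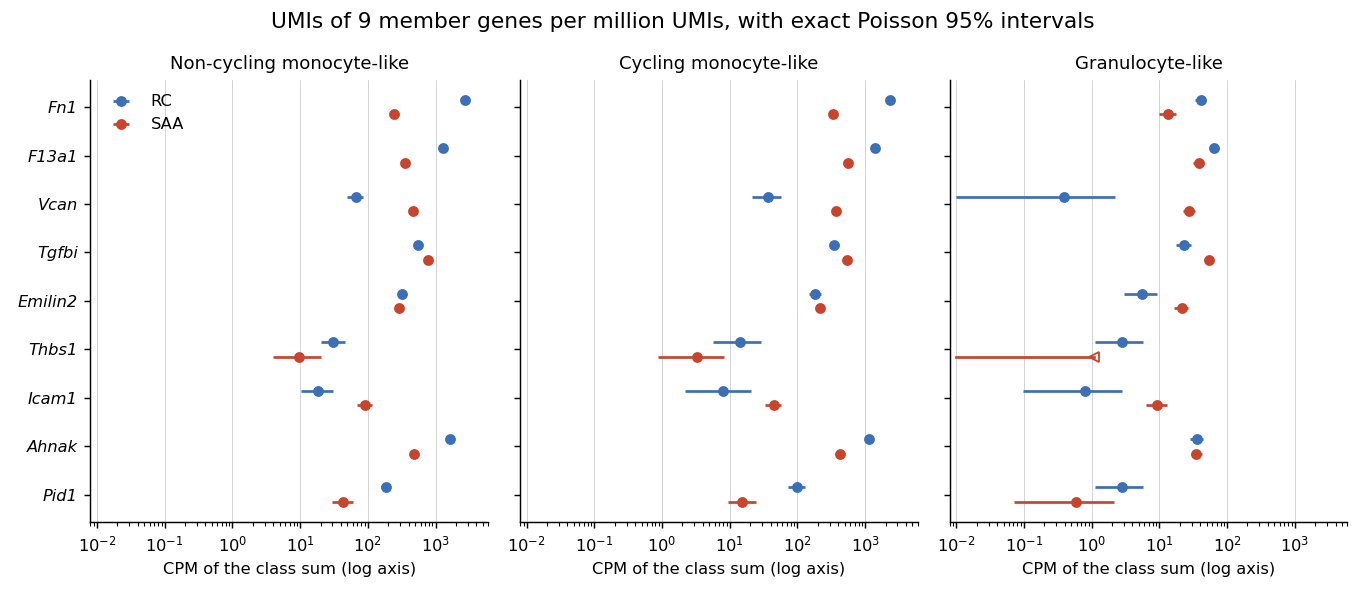
Levels of the 9 genes in CPM (horizontal log axis) in the RC library (blue) and the SAA library (red), in 3 cell classes, with bars for exact Poisson 95% intervals and an open triangle at the upper limit where no UMI was found. In non-cycling monocyte-like cells the RC and SAA levels were 2725 and 248 CPM for *Fn1*, and 65.8 and 465 CPM for *Vcan*.

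Among the matrix genes, *Fn1* had 2194 UMIs in RC and 178 in SAA non-cycling cells, or 2725 CPM (2612–2842) and 248 CPM (213–287). Its ratio was 0.0909 (0.0776–0.106), a level lower in SAA by 9.44- to 12.9-fold. In cycling cells it had 1141 and 420 UMIs, or 2306 and 340 CPM, with a ratio of 0.148 (0.132–0.165). In all, 31 of 6734 genes in the non-cycling and 9 of 7146 in the cycling class had a ratio as low or lower, itself included. *Fn1* was seen in most RC cells and in a smaller share of SAA cells. After thinning, 170 of 178 RC non-cycling cells held it (95.5%, 91.3–98.0%) against 45 of 129 SAA cells (34.9%, 26.7–43.8%), and unthinned the shares were 93.7% and 41.7%. Among cycling cells the thinned shares were 92.6% and 33.8%, and the unthinned ones 95.1% and 69.2%. The thinned RC cell had a median of 7 *Fn1* UMIs (quartiles 4 and 10, highest 23), whereas the SAA median was 0 with an upper quartile of 1 and a highest value of 7. In SAA the 10 highest non-cycling cells carried 89 of the 178 UMIs, and in RC 260 of 2194.

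Versican went the other way. *Vcan* had 53 UMIs in RC and 334 in SAA non-cycling cells (65.8 CPM, 49.3–86.1, and 465 CPM, 416–517), a ratio of 7.06 (5.27–9.62). In cycling cells it had 18 and 453 UMIs, 36.4 and 367 CPM, and a ratio of 10.1 (6.31–17.2). After thinning *Vcan* was seen in 12.9% of RC non-cycling cells (8.37–18.8%) and in 47.3% of those of SAA (38.4–56.3%), and unthinned in 12.3% and 55.6%. The highest RC non-cycling cell held 6 UMIs and the highest SAA cell 20. The RC count rested on few cells, since 10 of them held 52.8% of the UMIs.

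*Tgfbi*, a secreted integrin-binding protein named for its induction by TGF-beta, had 442 and 562 UMIs in non-cycling cells, or 549 CPM (499–603) in RC and 782 CPM (719–849) in SAA. Its ratio of 1.42 (1.26–1.62), and of 1.54 (1.30–1.83) in cycling cells, was above 1 beyond counting error but under 2-fold. Thinned shares of 72.5% (65.3–78.9%) and 77.5% (69.3–84.4%) overlapped. *Emilin2*, a glycoprotein of elastic microfibrils, had 261 and 206 UMIs, 324 and 287 CPM, and a ratio of 0.884 (0.733–1.07) that was not distinguishable from 1 at this depth. In cycling cells its ratio was 1.18 (0.927–1.51). *Thbs1*, a thrombospondin that activates latent TGF-beta, was scarce, with 25 UMIs in RC and 7 in SAA non-cycling cells (31.1 and 9.74 CPM) and a ratio of 0.314 (0.115–0.746). Of 252 RC cells 21 held it, and of 144 SAA cells 4, and 1 SAA cell held 4 of the 7 UMIs. In cycling cells it had 7 and 4 UMIs, under the minimum of 20.

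**Figure D2:**
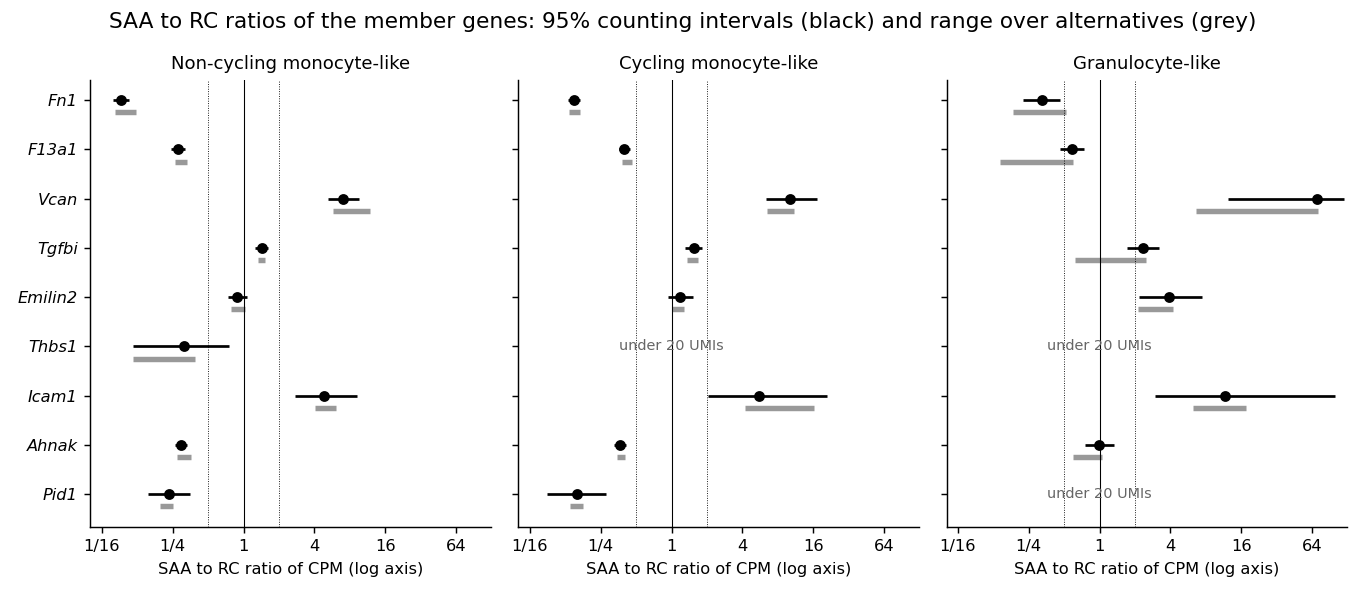
SAA to RC ratios of CPM (horizontal log axis, dotted lines at 2-fold) with 95% counting intervals in black and the range over the alternative settings in grey, for genes with at least 20 UMIs in the class. The *Vcan* interval in granulocyte-like cells runs past the axis, to 2819.6. *Fn1*, *F13a1*, *Ahnak* and *Pid1* lie left of 1 and *Vcan* and *Icam1* right of it in both monocyte-like classes.

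Of the coagulation factor, *F13a1*, non-cycling cells held 1035 UMIs in RC and 257 in SAA, or 1286 CPM (1208–1366) and 358 CPM (315–404). The ratio was 0.278 (0.242–0.319), a 3.60-fold lower level. Cycling cells held 686 and 680 UMIs, which with their unequal totals came to 1386 and 551 CPM and a ratio of 0.397 (0.357–0.442). The share of thinned cells with *F13a1* was 92.1% in RC (87.2–95.6%) and 47.3% in SAA (38.4–56.3%) among non-cycling cells, and 92.6% and 66.2% among cycling cells. Platelets and megakaryocytes also make factor XIII. The 14 platelet and megakaryocyte markers summed to 4 RC and 5 SAA UMIs in non-cycling cells and to 0 and 1 in cycling cells. No monocyte-like cell held 3 or more of them.

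The adhesion receptor *Icam1* was scarce in RC. It had 15 UMIs in RC and 65 in SAA non-cycling cells, or 18.6 CPM (10.4–30.7) and 90.4 CPM (69.8–115), a ratio of 4.85 (2.74–9.16). In cycling cells it had 4 and 55 UMIs and a ratio of 5.51 (2.03–20.9). Of 252 RC non-cycling cells 12 held it, and of 144 SAA cells 41. After thinning the shares were 6.18% (3.12–10.8%) and 20.2% (13.6–28.1%), and 11 of 130 SAA cycling cells held it. No UMI was left in 81 thinned RC cycling cells, although 4 of 82 held one unthinned. At the thinned depth a count of 0 allows a share of cells with a UMI of up to 3.70%, taking 3 cells of the total as the limit here and for other counts of 0.

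*Ahnak* and *Pid1* are not matrix genes. *Ahnak* encodes a very large scaffold protein beneath the plasma membrane that binds annexin A2 and its partner S100A10. It had 1330 and 348 UMIs in non-cycling cells, 1652 CPM (1564–1743) and 484 CPM (435–538), and a ratio of 0.293 (0.260–0.330), with 0.365 (0.323–0.412) in cycling cells. Thinned shares were 95.5% (91.3–98.0%) and 62.8% (53.8–71.1%). *S100a10* itself had 784 and 825 CPM (ratio 1.05, 0.940–1.18) and, in cycling cells, 1578 and 1048 CPM (0.664, 0.607–0.727). *Anxa2* had 710 and 487 CPM (0.685, 0.598–0.784) and in cycling cells a ratio of 0.702 (0.616–0.801). *Pid1*, whose product binds the cytoplasmic tail of the scavenger receptor LRP, had 148 and 31 UMIs, 184 and 43.1 CPM, and a ratio of 0.235 (0.154–0.347). In cycling cells it had 48 and 19 UMIs and a ratio of 0.159 (0.0881–0.275), and 11 of 7146 genes were as low or lower, itself included. Its thinned shares in non-cycling cells were 34.8% (27.9–42.3%) and 10.9% (6.06–17.5%).

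**Figure D3:**
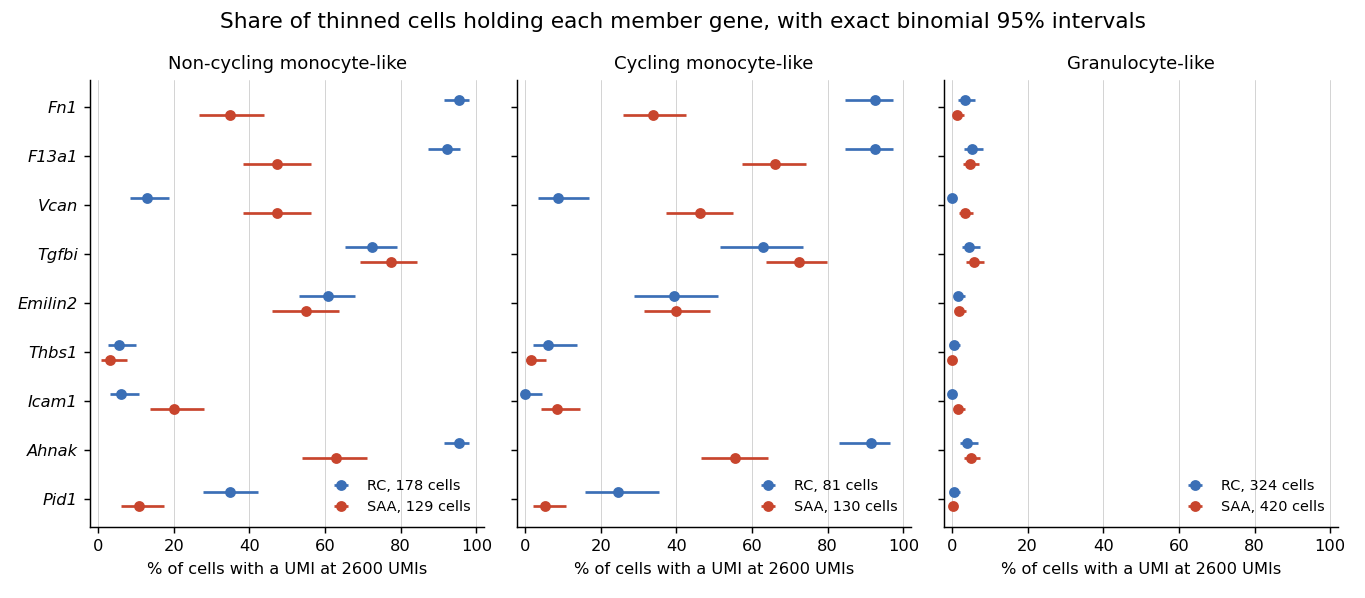
Percentage of cells holding at least 1 UMI of each gene after thinning to 2600 UMIs per cell, RC (blue) and SAA (red), in 3 cell classes, with Clopper-Pearson 95% intervals. After thinning *Fn1* was seen in 95.5% (RC) and 34.9% (SAA) of non-cycling monocyte-like cells, and every member in at most 5.71% of granulocyte-like cells.

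The background share of each gene was taken from granulocyte-like cells, whose median depth was 6791 UMIs in RC and 6860.5 in SAA. After thinning, no member was found in more than 5.71% of them in either library. The members were chosen in part on their levels in monocyte-like cells of these libraries, so a higher share there was favoured in advance. Some granulocyte-like cells also held monocyte markers, as given below. Of the 18 T and NK cell markers granulocyte-like cells held 1018 UMIs in RC and 1279 in SAA. At least 3 such UMIs were held by 96 of 325 RC and 82 of 428 SAA cells. In RC 16 of these genes were at 0 UMIs and in SAA 3, so this class was not alike in the 2 libraries. The comparison is therefore a description. In all 18 comparisons (9 genes in 2 libraries) the share in non-cycling monocyte-like cells was above the gene's own granulocyte-like share, and the intervals were apart in 17. The exception was *Thbs1* in SAA, found in 3.10% of non-cycling (0.851–7.75%) and in 0 of 420 granulocyte-like cells (Clopper-Pearson 0–0.874%), which by the limit of 3 cells allows a share of cells with a UMI at this depth of up to 0.714%. A second comparison came from the 24 SAA cells with tied marker sums, 22 of which held at least 3 UMIs of T and NK cell genes. In 123673 UMIs they had 0 of *Fn1*, *Vcan*, *Icam1*, *Pid1* and *Thbs1*, 2 of *Tgfbi*, 6 of *Emilin2*, 12 of *F13a1* and 40 of *Ahnak*. For *Ahnak* that came to 323 CPM, beside 484 in SAA non-cycling and 420 in SAA cycling monocyte-like cells. *Ahnak* was thus not particular to monocyte-like cells. The level of *F13a1* was 97.0 CPM, of *Emilin2* 48.5 and of *Tgfbi* 16.2, beside 358, 287 and 782 in SAA non-cycling cells.

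Cycling and non-cycling cells were also compared within each library, as a description, since the class rule was chosen with these data known. In RC the cycling cells had lower levels of *Vcan* (cycling to non-cycling ratio 0.553, 0.305–0.959), *Tgfbi* (0.637, 0.531–0.761), *Emilin2* (0.567, 0.442–0.723), *Ahnak* (0.697, 0.631–0.770), *Pid1* (0.528, 0.373–0.735) and *Fn1* (0.846, 0.787–0.909). The *F13a1* ratio was 1.08 (0.978–1.19), and those of *Thbs1* and *Icam1* had intervals that held 1. In SAA *Fn1* (1.37, 1.15–1.65) and *F13a1* (1.54, 1.33–1.79) were higher in cycling cells. The others were lower there, *Pid1* at 0.357 (0.190–0.652), *Icam1* at 0.493 (0.338–0.717), *Tgfbi* at 0.688 (0.614–0.771), *Emilin2* at 0.758 (0.629–0.913), *Vcan* at 0.790 (0.684–0.912) and *Ahnak* at 0.868 (0.757–0.998), with *Thbs1* too scarce to place. The *Fn1* intervals lay on opposite sides of 1 in the RC and SAA libraries. The cycle cut is a count of UMIs, which deeper cells reach more readily, and SAA cells were deeper. With classes taken from thinned cells, cycling cells numbered 69 in RC and 87 in SAA, in place of 82 and 133. The part of depth in the ratios of cycling to non-cycling cells was not tested.

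Because *Fn1* and *Vcan* had opposite ratios, their UMIs were counted in the same cells. Among 178 thinned RC non-cycling cells, 147 held *Fn1* alone, 23 held both, 8 held neither and 0 held *Vcan* alone. Among 129 SAA cells, 21 held *Fn1* alone, 24 both, 37 *Vcan* alone and 47 neither. The cycling cells split much the same way, with 68, 7, 0 and 6 RC cells holding *Fn1* alone, both, *Vcan* alone or neither, and 20, 24, 36 and 50 SAA cells. Cells with a UMI of *Vcan* and none of *Fn1* were 28.7% of SAA non-cycling cells. None of 178 RC cells was of that kind, which at this depth allows a share of up to 1.69%, but only the 8 RC cells without *Fn1* could have been. A cell at this depth can miss a transcript that it holds.

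**Figure D4:**
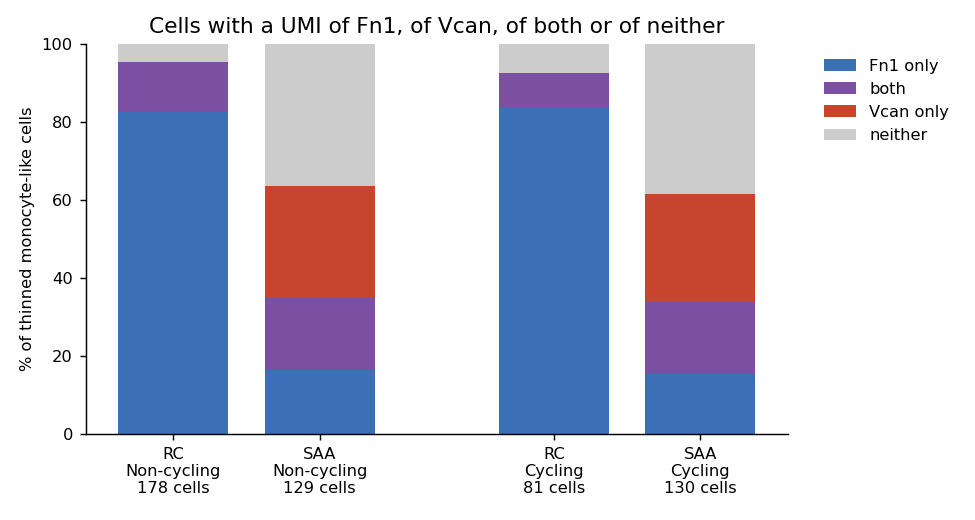
Percentage of thinned monocyte-like cells (vertical axis) with a UMI of *Fn1* only, of *Vcan* only, of both or of neither, by library and cycling class. *Vcan* without *Fn1* was seen in 28.7% of SAA non-cycling cells and in 0 of 178 RC cells.

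Across thinned non-cycling cells, member genes were weakly related at best. Spearman's rho reached 0.2 in 1 of 36 gene pairs in RC (*Fn1* with *F13a1*, 0.30 over 178 cells) and in 5 pairs in SAA over 129 cells. These were *Fn1* with *Ahnak* (0.38), *F13a1* with *Ahnak* (0.34), *Fn1* with *F13a1* (0.32), *Thbs1* with *Pid1* (0.22) and *Emilin2* with *Ahnak* (0.21). No pair reached -0.2 in either library, the lowest being -0.19 in SAA. Over all 259 thinned monocyte-like cells of each library, and 2961 genes compared by the mean rho of both, the gene most like *Fn1* was *F13a1* (0.23), followed by *Ahnak* (0.21). *F13a1* was nearest to *Ly6c2* (0.25), *Fn1* and *Ifitm6* (0.22), *Ahnak* to *Lsp1* (0.22) and *F13a1* (0.22), *Tgfbi* to *Tmem50b* (0.20) and *Emilin2* to *Ccr2* (0.20). For *Vcan* (*Chil3*, 0.18) and *Pid1* (*Mcl1*, 0.16) no gene reached 0.2. The cells share a library, and such weak relations in sparse counts are no finding.

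In granulocyte-like cells 7 members reached 20 UMIs. *Fn1* was at least 2-fold lower in SAA, *Vcan*, *Tgfbi*, *Emilin2* and *Icam1* at least 2-fold higher, and *F13a1* and *Ahnak* lay between, beside 5.0% lower and 6.36% higher of 8863 genes. The levels were low, and the comparison with monocyte-like cells is a description, since the members were chosen in part on levels there. Within a library the summed monocyte-like cells exceeded them in RC by 8.92-fold for *Thbs1* (3.87–24.0) to 62.6-fold for *Fn1* (51.5–76.8), and *Vcan* had 71 UMIs there against 1 (139, 24.1–5551). In SAA the excess was 6.69-fold for *Icam1* (4.48–10.3) to 43.2-fold for *Pid1* (11.4–367), and at least 6.34-fold for *Thbs1*, which had 0 granulocyte-like UMIs there against a floor of 3 UMIs. *Vcan* had 1 RC and 94 SAA UMIs (0.394 and 27.8 CPM, ratio 70.6, 12.4–2819.6), *Emilin2* had 14 and 72 (ratio 3.87, 2.16–7.42), *Icam1* 2 and 31 (11.6, 2.96–100.5) and *Fn1* 104 and 45 (0.325, 0.224–0.466). Many member UMIs of this class lay in a few cells that also held monocyte markers. Of the *Fn1*, *F13a1*, *Ahnak* and *Tgfbi* UMIs in this class, 12 RC cells (3.69%) with at least 5 monocyte marker UMIs held 75.8%, and 30 such SAA cells (7.01%) held 89.9%. Without them *Vcan* had 1 and 8 UMIs, *Fn1* 20 and 0, *Icam1* 2 and 15, *Tgfbi* 33 and 25 and *Emilin2* 5 and 13, and 2 members were lower (*Fn1*, and *F13a1* with 23 and 4 UMIs). The ratios of *Vcan* (6.59), *Icam1* (6.18) and *Emilin2* (2.14) were still past 2-fold but had under 20 UMIs, so that none was counted as higher, and the *Tgfbi* ratio turned from 2.33 to 0.624. All *Icam1* UMIs of RC and 15 of 31 in SAA lay outside those cells, as did 33 of the 58 RC *Tgfbi* UMIs. What the cells with monocyte markers are was not tested. Leaving out cells with at least 3 UMIs of T and NK cell markers left 229 RC and 346 SAA granulocyte-like cells. The ratios were then 0.222 for *Fn1*, 0.454 for *F13a1*, 0.676 for *Ahnak* and 1.90 for *Tgfbi*. *Emilin2* was at 2.93, *Icam1* had 1 and 23 UMIs and *Vcan* 0 and 94.

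Other cell markers moved with the condition. In non-cycling cells 10 non-classical monocyte markers summed to 553 CPM in RC and 127 CPM in SAA, with 4 of the 5 that reached 20 UMIs at least 2-fold lower and *Cx3cr1* at 224 and 0 UMIs. Of 252 RC cells, 60 held at least 3 UMIs of them, and of 144 SAA cells 5. Without those cells *Fn1* had a ratio of 0.091, *Vcan* of 6.49 and *Icam1* of 6.17. The 14 macrophage markers summed to 152 and 537 CPM, with *C1qb* at 0 and 109 UMIs, and 4 RC and 37 SAA cells held at least 3 UMIs. Without those *Fn1* had a ratio of 0.122 and *Vcan* of 8.07. The 9 progenitor markers summed to 13 RC and 1572 SAA UMIs, and 1 reached 20 UMIs, *Ly6a* with 1 RC and 1550 SAA. *Procr* had 0 and 19, *Kit* 1 in each and *Cd34* 1 and 0. Of 11 dendritic cell markers, 4 reached 20 UMIs, and *Bst2* was higher (121 and 279 UMIs), *Irf8* had a ratio of 0.874 (0.703–1.09), *Cd209a* had 24 and 0 and *Dnase1l3* 0 and 23. The 10 classical monocyte markers summed to 27672 and 25094 CPM, with 2 lower (*S100a4*, 0.207, 0.181–0.237, and *Cd177*, 113 and 4 UMIs) and 2 higher (*Chil3*, 3.95, 3.55–4.39, and *Plac8*, 3.22, 3.04–3.42), and *Lyz2* at 19383 and 10773 CPM. T and NK cell markers, at 2 and 65 UMIs, were held at 3 or more by 2 SAA non-cycling cells. In cycling cells they had 2 and 328 UMIs, with 8 SAA cells at 3 or more. Of 13 immediate early and dissociation genes with 20 UMIs, 5 were at least 2-fold lower and 2 higher in SAA non-cycling cells (1297 and 1094 CPM in sum), among them *Klf4* (0.336, 0.225–0.491) and *Ier2* (0.385, 0.267–0.546), while *Klf6* (1.01) and *Junb* (1.22, 0.939–1.57) lay between. The 8 granulocyte markers summed to 142 and 271 CPM in non-cycling cells, where 6 of 252 RC and 28 of 144 SAA cells held at least 3 UMIs. In cycling cells they summed to 459 and 660 CPM, and 30 of 82 RC and 85 of 133 SAA cells did. These cells were not thinned, and SAA cells were deeper. The part of these shifts in the member ratios was otherwise not tested.

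Of 83 other genes measured in 7 lists of these pathways, 13 (15.7%) were at least 2-fold lower in SAA non-cycling cells and 11 (13.3%) at least 2-fold higher, beside 11.3% and 8.72% of all genes. Genes outside the 4 most abundant of each list are named here after their values were seen. Among 31 further matrix genes, 5 reached 20 UMIs in non-cycling cells and 2 were higher, *Emilin1* (22 and 40 UMIs, ratio 2.04, 1.18–3.60) and *Spp1* (6 and 14). The galectins *Lgals3* and *Lgals1* had ratios of 0.549 (0.504–0.598) and 0.670 (0.588–0.762), and *Srgn*, the granule proteoglycan core, 1.02. In cycling cells the galectins were at 0.648 and 0.526, and *Srgn* at 2.66 (1.84–3.96). In coagulation and fibrinolysis 11 of 34 genes were measured in non-cycling cells, with 3 lower and 3 higher. The lower ones were *F5* (38 and 13 UMIs), *Thbd*, the thrombin receptor thrombomodulin (20 and 1), and the plasminogen activator inhibitor *Serpinb2* (34 and 0). The higher ones were *Plau* (7 and 15), the transglutaminase *Tgm2* (0 and 44) and *Fgl2*, a membrane prothrombinase, with 33 and 426 UMIs (ratio 14.5, 10.1–21.3) and, in cycling cells, 6 and 460 (30.7, 14.0–84.2). *F10* had a ratio of 1.44 (1.08–1.92).

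Of 31 matrix proteases and inhibitors 12 were measured in non-cycling cells, of which 2 were lower (*Adamts10*, 30 and 10 UMIs, and *Timp2*, 17 and 3) and 1 higher (*Mmp14*, a membrane-bound metalloproteinase, 0 and 55). The abundant *Cst3* (0.676, 0.631–0.723), *Ctss* (1.31, 1.20–1.43), *Ctsb* (1.05, 0.919–1.19) and *Adam10* (0.625, 0.430–0.900) lay between. Of 10 measured integrins 2 were lower, the collagen-binding *Itga1* (94 and 21 UMIs) and *Itgb5* (17 and 7), and none was higher. *Itga4* (0.705, 0.595–0.834), *Itgb2* (0.977, 0.826–1.16), the beta chain of the integrins that bind ICAM-1, *Itgb7* (0.920, 0.747–1.13) and *Itgam* (0.727, 0.603–0.874) were within 2-fold. In cycling cells the ratios were 1.38 (1.10–1.75) for *Itga4* and 1.42 (1.13–1.79) for *Itgb2*. There *Itgb7* was at 0.878 (0.705–1.10) and *Itgam* at 1.25 (0.938–1.67). Of 16 further adhesion receptors measured in non-cycling cells 1 was lower (*Alcam*, 56 and 7 UMIs) and 3 were higher. The higher ones were the junctional *F11r* (1 and 30) and the syndecans *Sdc3* (33 and 120) and *Sdc4* (0 and 43). *Ly6c2* (1.94, 1.82–2.06), *Emb* (0.643, 0.549–0.752) and *Cd47* (0.969, 0.818–1.15) lay between. In cycling cells *Ly6c2* was at 1.99 (1.88–2.12), *Emb* at 0.752 (0.655–0.865) and *Cd47* at 1.33 (1.11–1.60).

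Of 21 focal adhesion and talin adaptors measured in non-cycling cells 3 were lower and 2 higher (*Parvg* and *Vasp*). The lower ones were *Vcl*, *Apbb1ip* and *Rasgrp2*, the last with 127 and 32 UMIs and a ratio of 0.282. *Flna* was at 0.621 (0.538–0.715) and *Tln1* at 0.810 (0.703–0.933). In the TGF-beta pathway 2 of 10 measured genes were lower, both receptor genes, *Tgfbr1* with 30 and 6 UMIs (ratio 0.224) and *Tgfbr2* with 29 and 8 (0.309), and none was higher. *Tgfb1* (0.815) and *Nrros* (1.46, 1.19–1.79) lay between, as did *Smad4* (0.605, 0.364–0.985) and *Smad2* (0.850, 0.465–1.53). Median log2 ratios of the 8 lists lay between -0.42 (integrins) and 0.03 in this class, beside -0.08 over all genes. In cycling cells 7 (9.46%) of 74 genes were lower and 11 (14.9%) higher, beside 7.5% and 9.63% of all genes. By list the lower and higher genes were 0 and 2 of 5 measured matrix genes, 0 and 1 of 8 in coagulation, 0 and 0 of 10 proteases and inhibitors, and 1 and 1 of 8 integrins. The remaining counts were 1 and 4 of 16 adhesion receptors, 1 and 3 of 21 adaptors and 4 and 0 of 8 TGF-beta pathway genes. *Smad4* (0.412, 0.252–0.676) and *Smad2* (0.481, 0.288–0.809) were among those 4, while *Tgfb1* (0.732) and *Nrros* (1.36) lay between.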

How the data were processed

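Sorted marrow cells of 1 pooled RC and 1 pooled SAA library were analysed. The authors deposited UMI counts per gene and cell barcode from the Chromium 5′ v2 chemistry, unnormalized. Per the submitters' processing notes these were made with Cell Ranger 6.0.1 against mm10. The 9 genes, the gene lists and the class rule were chosen with earlier results of these data known. The study removed cells with over 25% mitochondrial RNA or under 1000 genes. Here the gene minimum was used, and no retained classified cell exceeded 25%. Gene rows were matched by symbol. Of the cell barcodes, 1 occurred in both libraries, and none was retained in both. No doublet caller was run, and doublets were treated by an alternative without mixed and very deep cells.

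UMIs were summed per class and library and divided by the class total. Ratios were described for genes with at least 20 UMIs over both libraries in the class, and a gene counted as lower or higher at 2-fold. Genes with 0 UMIs in a library were set against a floor of 3 UMIs. The minimum, floor and fold are choices made here. Cells were thinned at random (seed 1) to 2600 UMIs, which left out 74 RC and 15 SAA non-cycling cells. Named are the 9 genes, the 4 most abundant other genes of each of 8 lists (1 such gene is not reported here), and the 3 genes most alike to each member with at least 200 monocyte-like UMIs, of which those with a mean rho of 0.2 or the first are given. Alternatives changed the cell filter, class rule, scaling (with TMM factors of edgeR 4.0.16 under R 4.3.3), cell weighting, minimum and thinning. The last 3, on monocyte marker minimums and on non-classical and macrophage markers, were added after seeing the data. The intervals were tried on simulated counts drawn independently from Poisson distributions, which is the assumption they rest on. That trial could not show how they hold for UMIs clustered in few cells. Coordinates are from the GENCODE mouse annotation of GRCm38 by Ensembl identifier, and upstream sequences from RefSeq. Work was done in Python 3.11.15 with numpy 2.4.6, scipy 1.17.1, pandas 2.3.3 and matplotlib 3.10.9.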

Additional observations from a re-analysis of the deposited data

Results flagged for a closer look

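The SAA to RC ratio of *Emilin2* lay below 1 in non-cycling monocyte-like cells (0.884, 0.733–1.07), above 1 in cycling monocyte-like cells (1.18, 0.927–1.51) and furthest above 1 in granulocyte-like cells (3.87, 2.16–7.42). It stands out because classes of the same 2 libraries differed in direction. The difference between the classes was not tested, and both monocyte intervals held 1. The granulocyte-like value rests on 14 RC and 72 SAA UMIs and was 2.14 with 5 and 13 UMIs when cells with at least 5 monocyte marker UMIs were left out.

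Barcodes with under 1000 detected genes, which no comparison above used, held the same genes. There *Vcan* had 6 RC and 17 SAA UMIs (ratio 4.53, 1.70–14.0) and *Icam1* 1 and 6 (9.59, 1.16–441), above the RC level in both cases. *Emilin2* had 48 and 14 (0.466, 0.237–0.860) and *Tgfbi* 71 and 38 (0.856, 0.561–1.29), both below 1. *Fn1* had 305 and 8 UMIs in these 136 and 96 barcodes, a ratio of 0.0419 (0.0179–0.0837). All these barcodes were pooled without cell classes, and the mix of cells differed between the libraries. Classed by the same marker rule, they raised the non-cycling monocyte-like class from 252 to 345 cells (RC) and from 144 to 177 (SAA). At least 3 T and NK cell UMIs were held by 3 RC and 12 SAA barcodes. The ratios do not compare levels within a cell class, and the part of the cell mix in them was not tested. With 1 library per condition no difference given here was tested.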

How the results depend on the processing

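The 6 counts of members past 2-fold were recomputed under 18 alternatives, and all 4 counts in the monocyte-like classes stayed within 1.5 times of their values. In granulocyte-like cells the count of lower members was 2 in place of 1 with strict classes, without cells holding T and NK markers, with cells weighted equally and without cells holding macrophage markers. With at least 5 monocyte marker UMIs required of monocyte-like cells and fewer of granulocyte-like cells, chosen after seeing the data, it was also 2, and the count of higher members was 0 in place of 4, where *Vcan* (6.59), *Icam1* (6.18) and *Emilin2* (2.14) stayed past 2-fold but under 20 UMIs. The *Tgfbi* ratio in granulocyte-like cells was 0.624 under that alternative and 0.992 without mixed and deepest cells, against 2.33. Elsewhere no ratio past 2-fold changed direction. Over the 18 alternatives the non-cycling ratios spanned 0.0809 to 0.122 for *Fn1*, 0.261 to 0.332 for *F13a1*, 0.269 to 0.359 for *Ahnak*, 0.193 to 0.252 for *Pid1*, 0.115 to 0.384 for *Thbs1*, 5.74 to 11.9 for *Vcan* (highest with at least 1500 genes and at most 10% mitochondrial UMIs) and 4.02 to 6.17 for *Icam1*. In cycling cells *Icam1* spanned 4.18 to 16.4, highest without cells holding non-classical markers, where RC counts are few. *Vcan* there spanned 6.52 to 10.9, lowest without mixed and deepest cells, which left 56 RC and 83 SAA cycling cells. The cycling spans were 0.136 to 0.166 for *Fn1*, 0.383 to 0.465 for *F13a1*, 0.345 to 0.402 for *Ahnak* and 0.138 to 0.176 for *Pid1*. Scaling moved the log2 ratios of all genes by at most 0.12. At 1300 UMIs the order of the libraries held in 17 of 18 thinned shares, the exception being *Emilin2* in cycling cells (28.0% RC, 23.3% SAA). No paired analysis was possible because each condition has 1 library, and for the same reason no library could be left out.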

Other observations

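Each library holds 1 pool of 3 mice, so a difference between RC and SAA cannot be told apart from a difference between pools or library preparations. All intervals assume independent UMIs, and in SAA 10 of 144 non-cycling cells held 89 of the 178 *Fn1* UMIs of that class.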
